A study of Caenorhabditis elegans with 4 samples.

Results

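The regions described here are the 484 places on the X chromosome of Caenorhabditis elegans where DNA was enriched with an antibody against MSH-5. They were chosen by chromosome alone, as every row on X of the peak list deposited for the whole series, with no limit on the score. They make up 484 of the 3271 peaks of that list, which is called the combined list here, or 14.8% of its 3269 nuclear peaks. The same chromosome held 167 peaks in the list of ChIP replicate 1 and 282 in the list of ChIP replicate 2.

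The study has 4 libraries, of which 2 are ChIP with the MSH-5 antibody and 2 are input chromatin. All came from worms of the strain fem-2(b245), with the genotype fem-2(b245)III, labelled as hermaphrodites and grown at 20 °C. The stage label gives young adults with a germline, whereas the growth protocol describes gravid adults taken from large synchronized batches, so each library stands for many pooled animals. Every library carries the fem-2 allele, and no wild-type, no mutant of msh-5 and no other treatment was analysed here. Whole worms were used, so a peak cannot be assigned to germline or somatic nuclei.

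MSH-5 pairs with MSH-4, which is called HIM-14 in this worm, in a MutS-type complex that works on meiotic recombination intermediates and is needed for crossovers. The X chromosome of a hermaphrodite pairs and recombines in the germline like an autosome, while most of its genes are kept silent there. Its left part carries a pairing centre, where the zinc-finger protein HIM-8 binds and meiotic pairing starts. In somatic cells of hermaphrodites X is also bound by the dosage compensation complex, which loads at recruitment elements scattered along the chromosome. The positions of these elements and of the HIM-8 sites were not used here.

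All coordinates are 1-based positions on X in the build WS220, as the file headers name it. Each peak has a score deposited by the authors, whose scale is not stated. Scores rank peaks within 1 list, and those of the combined list, from 1.40 to 205 on X, cannot be set against those of the replicate lists, from 50.2 to 3189 on X. A score of exactly 3100 recurs in both replicate lists, at 19 X peaks in each, so these are tied. The number of reads behind each list is unknown. No sequence is shown, because a genome of this build was not used here.

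The X peaks ran from a few prominent places to a long tail of low ones. The median combined score on X was 6.92, the middle 50% lay between 4.36 and 13.5, and 10% of the X peaks scored 36.1 or more. A peak covered 301 bp at the median, from 146 to 10797 bp, and all 484 together covered 244324 bp, or 1.38% of the chromosome. The best-scored X peak stood at 205. A limit of 100 does not fall in a gap of the scores, since the members on either side of it scored 101 and 99.97. Above 100 lay 26 of the 484 members, or 5.37%, against 41 of all 3269 nuclear peaks, or 1.25%, which include these 26.

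The 20 best-scored X peaks were spread over the whole chromosome, and each of them was found in both replicate lists. Such support is not particular to X, since all 41 nuclear peaks above a score of 100 were found in both. Of these 41, 26 lay on X and the others on autosomes. The highest score of a nuclear peak not found in both was 92.2. X was divided into 10 bins of equal length, numbered from the left. Each bin held at least 1 of the 20 best-scored X peaks, bin 1 held 5 and bin 7 held 3. Neighbours among them lay 0.855 Mb apart at the median, from 0.0446 to 1.63 Mb. They were 1398 bp wide at the median, from 589 to 2107 bp, against a median of 289 bp for the other 464 members. They made up 4.13% of the members and 11.2% of the bases that the X peaks cover. In replicate 1 their scores ran from 1524 to 3100 and 16 of the 20 were tied at 3100, and in replicate 2 they ran from 1425 to 3100 with 17 tied.

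The highest member, from 2996202 to 2997788, scored 205 in the combined list and 3100 in each replicate. In replicate 1 this peak was 1444 bp wide and in replicate 2 it was 1599 bp wide. Bin 1 held the closest neighbours among the best 20, with members from 1344464 to 1345548 and from 1389011 to 1390266, which scored 177 and 183 and were at 3100 in both replicates. Between these neighbours the combined list placed further peaks. The best of these, from 1374899 to 1375483, had a combined score of 30.85 and was found in both replicates, with 848 and 388. Those from 1369725 to 1369985 and from 1385868 to 1386160 had combined scores of 14.3 and 13.8, and neither replicate list had them. The others were found in 1 replicate each.

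Members of this set in the middle of X scored high in both libraries. The peak from 7181380 to 7182133, 754 bp wide, scored 178 in the combined list, 2647 in replicate 1 and 2607 in replicate 2. The peak from 8035656 to 8037081 scored 174 and was at 3100 in both replicates. The peak from 9465156 to 9466700 scored 155, again with 3100 in both. The tied score does not rank the latter peaks within a library.

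Further right, the member from 11093303 to 11095028 scored 168, the member from 12362246 to 12363818 scored 158 and the member from 13700101 to 13701318 scored 164. All 3 were at 3100 in both replicates. The last of the best 20 on the right, from 17544153 to 17544741, was the narrowest at 589 bp and scored 150 in the combined list. Its replicate scores of 1524 and 1425 were the lowest of the 20 in each library. A second peak followed within the same 2 kb, from 17545352 to 17545969, with a combined score of 101 and replicate scores of 779 and 807.

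The replicate libraries placed these 20 peaks at nearly the same positions. The midpoints of the peaks in replicate 1 and replicate 2 differed by 42.25 bp at the median, from 3.5 to 131.5 bp, and 19 of the 20 differed by at most 100 bp. These offsets were below the width of the narrowest of the 20.

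Below the best 20, the 6 further members above 100 included the widest X peak. It ran from 16929184 to 16939980, over 10797 bp, and scored 145 in the combined list. Each replicate split it into 3 peaks, of which the best was 6710 bp wide in replicate 1 and 6821 bp in replicate 2, both with a score of 3100. Other members above 100 were narrower. The peak from 16681534 to 16682489 scored 139, with 3055 in replicate 1 and 3100 in replicate 2, and the peak from 13514157 to 13514883 scored 131, with 1282 and 1427.

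**Figure D1:**
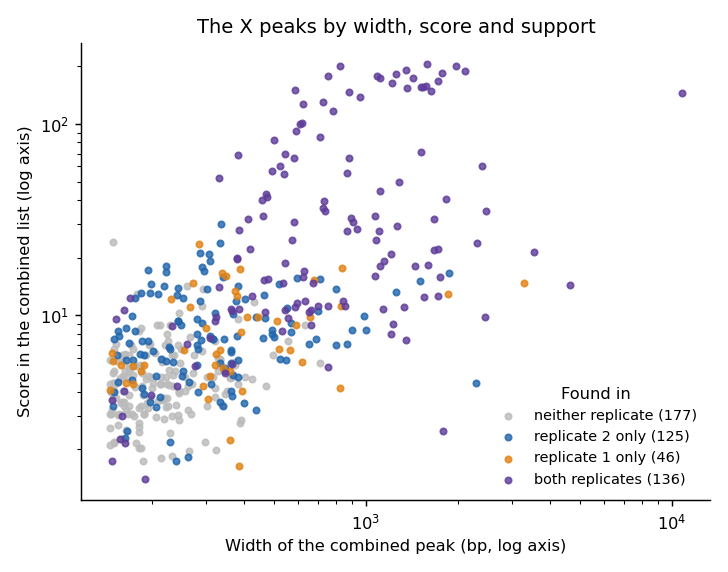
Each point is 1 of the 484 combined peaks on X, with its width in bp on the horizontal log axis and its score in the combined list on the vertical log axis, coloured by the replicate lists in which it was found. The 26 peaks above a score of 100 were all found in both replicates, as were all 41 nuclear peaks above 100, which include these 26. The 177 peaks found in neither lie at low scores and small widths, with a median of 4.39 and 207 bp.

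Support by the single libraries divided the X peaks into 4 classes, where a combined peak counts as found in a replicate when it overlaps a peak of that list by at least 1 bp. A replicate peak over several combined peaks counts for each of them, up to 6 on X. Of the 484 members, 136 were found in both replicates, or 28.1% (exact 95% interval 24.1 to 32.3), against 22.9% of all nuclear combined peaks. A further 46, or 9.50%, were found in replicate 1 only, against 10.1% of all peaks, and 125, or 25.8%, in replicate 2 only, against 19.3%. The remaining 177, or 36.6% (32.3 to 41.0), were found in neither, against 47.7% of all peaks. The study has no other ChIP libraries, and how the combined list was made is not stated. Support in a replicate list can therefore not be taken as independent of it, and intervals cover the counting of peaks only.

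The classes differed in score and width. Members found in both replicates had a median combined score of 22.1 and a median width of 716 bp and made up 54.9% of the covered bases. Members found in neither had a median score of 4.39 and a median width of 207 bp and made up 16.7% of the covered bases. Members found in replicate 1 only and in replicate 2 only lay between these, with medians of 6.6 and 7.55 for the score and of 346 and 291 bp for the width.

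X had the smallest share of unsupported peaks among the 6 chromosomes. The share found in neither replicate was 36.6% on X and ran from 44.6% to 52.5% on the 5 autosomes, with 49.7% over all autosomal peaks. X minus the autosomes was thus -13.1 points. The lists differ in how much of them lies on X, with 14.8% of the nuclear peaks of the combined list, 15.7% of replicate 1 and 17.4% of replicate 2. Combined peaks numbered 27.3 per Mb on X and 33.7 on the autosomes. In replicate 1 these densities were 9.43 and 10.9, and in replicate 2 they were 15.9 and 16.2. The shares were not corrected for this, and its part in the difference was not tested. The counting intervals were 32.3 to 41.0 on X and 47.8 to 51.5 on the autosomes. They treat clustered peaks as independent, so they are no test of this difference. With the chromosome as the unit, 1 X against 5 autosomes, an exact permutation test gave a two-sided p of 0.167, the smallest this design allows, so the order of the chromosomes is all that can be stated. The share found in both replicates was also highest on X, at 28.1%, but chromosome V followed at 27.8%, a difference within their counting intervals.

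The gap was widest in the second-best of 4 score classes. Combined peaks of all chromosomes were divided into 4 score classes of nearly equal size, with class 1 the best. In class 2, with scores from 6.30 to 11.2, 25 of 113 X peaks were found in neither replicate, or 22.1% (14.9 to 30.9), against 40.4% of all peaks in that class and 38.9% to 52.2% on the single autosomes. In class 1 the shares were 3.45% on X and 4.06% of all peaks. In class 3, 59.8% of X peaks and 67.0% of all peaks were found in neither, and in class 4 the shares were 70.6% and 78.7%. Peaks found in both replicates made up 65.5% of X peaks in class 1, against 65.4% of all peaks, and 23.9% in class 2, against 15.7%. In class 3 they made up 4.27% on X against 5.42%, and in class 4 they made up 8.26% against 5.49%. In these counts a replicate peak over several combined peaks supports each of them. On X 12.6% of replicate 1 peaks and 9.22% of replicate 2 peaks lay over more than 1, against 8.54% and 5.99% over all chromosomes. Members found in both in class 2 include such pieces, as from 15807920 to 15808072 and from 15808315 to 15808872 under the same replicate peaks. The shares were not corrected for this. The division into classes was chosen after the data were seen. With the autosomal shares weighted to the score classes of X, X minus the autosomes was -9.28 points for peaks found in neither (exact permutation p = 0.167). For peaks found in both it was 2.66 points with this weighting, no longer the largest deviation among the 6 chromosomes (exact permutation p = 0.50). Without the weighting it was 6.12 points (exact permutation p = 0.167).

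The smaller share of unsupported X peaks went mainly with replicate 2. Of the X peaks in class 2, 41.6% (32.4 to 51.2) were found in replicate 2 only, against 29.3% of autosomal peaks. In the same class 12.4% of X peaks were found in replicate 1 only, against 13.0%. Called from replicate 2 alone, 46.1% of all X members were unsupported, and X minus the autosomes was -13.8 points (exact permutation p = 0.167). Called from replicate 1 alone, 62.4% were unsupported, and X minus the autosomes was -5.43 points, no longer the largest deviation among the 6 chromosomes (exact permutation p = 0.50).

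**Figure D2:**
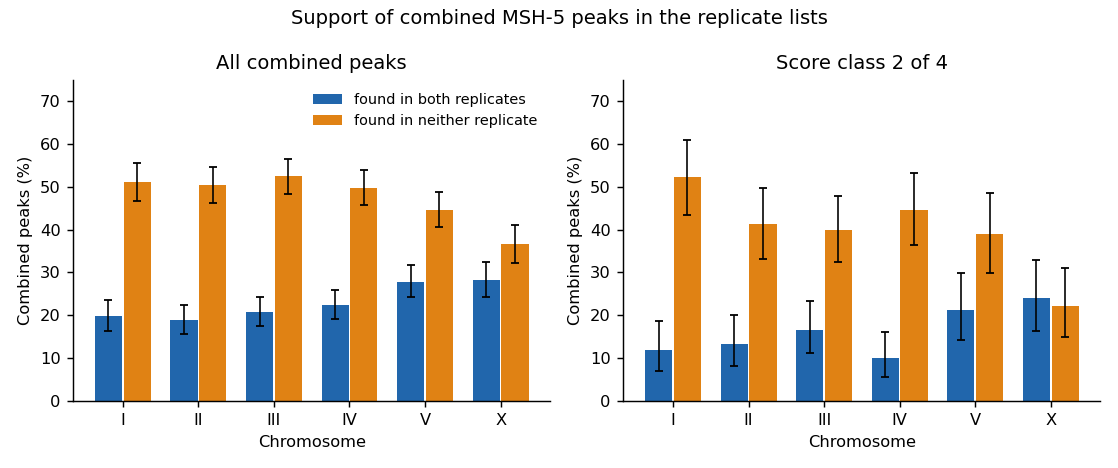
Bars give the percentage of combined peaks on each chromosome that were found in both replicate lists (blue) and in neither (orange), for all peaks on the left and for score class 2 on the right, with exact 95% intervals that cover counting only. On X 36.6% of all peaks were found in neither list, and 22.1% in class 2, the lowest bar of that colour in both panels.

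The upper part of the score range lay higher on X than on any autosome in all 3 lists, measured at the 90th percentile. In the combined list this was 36.1 on X and ran from 17.5 to 27.0 on the 5 autosomes. In replicate 1 it was 3100 on X, the tied value, and ran from 712 to 1611 on the autosomes. In replicate 2 it was 1097 on X and ran from 405 to 713. X was first of the 6 chromosomes in all 3 lists, and each exact permutation test gave a two-sided p of 0.167, the smallest possible.

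The middle of the score range differed less. The median score on X was 1.11 times that of the autosomes in the combined list, 6.92 against 6.25, with autosomes from 6.04 to 6.36 (exact permutation p = 0.167). In replicate 1 it was 314 on X and 157 over the autosomes, which ran singly from 112 to 195 (exact permutation p = 0.167). In replicate 2 it was 120 on X, below the 126 of chromosome V (exact permutation p = 0.50). The X median thus lay above that of every autosome in the combined list and replicate 1, but not in replicate 2.

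X peaks were also somewhat wider. The median width was 301 bp on X in the combined list and 250 to 276 bp on the autosomes, and in replicate 1 it was 664 bp on X and 412 to 542.5 bp on the autosomes (exact permutation p = 0.167 for each). In replicate 2 it was 374 bp on X, below the 399 bp of V (exact permutation p = 0.67). Wider peaks scored higher on X, with a Spearman rho between score and width of 0.65 over the 484 combined peaks, 0.76 over the 167 of replicate 1 and 0.84 over the 282 of replicate 2. These are descriptions over peaks that share a library. On the autosomes the values were 0.59, 0.77 and 0.76.

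**Figure D3:**
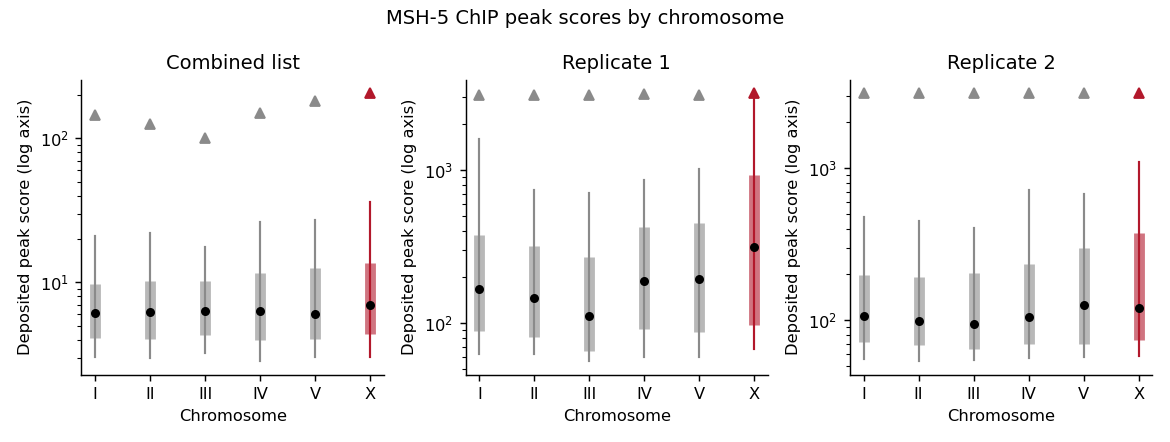
For each chromosome the dot marks the median deposited score, the thick bar the middle 50% of peaks, the thin line the 10th to 90th percentile and the triangle the highest score, on log axes, for the combined list and each replicate list. The thin line of X reaches highest in all 3 panels, to 36.1, 3100 and 1097, while the medians of X and the autosomes lie close together in the combined list and in replicate 2.

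Between the replicates, 116 of the 167 X peaks of replicate 1 overlapped a peak of replicate 2, or 69.5% (61.9 to 76.3), against 65.8% of all nuclear peaks of that list. Of the 282 X peaks of replicate 2, 134 overlapped a peak of replicate 1, or 47.5% (41.6 to 53.5), against 51.2% of all. Both X shares lay within the range of the autosomes, 58.4% to 71.4% for replicate 1 and 47.4% to 56.4% for replicate 2 (exact permutation p = 0.83 and p = 0.67). Shared X peaks of replicate 1 had a median score of 556 and the others one of 91.1, and in replicate 2 these medians were 371 and 83.4. The combined list held 160 of the 167 X peaks of replicate 1, or 95.8%, against 94.0% of all peaks of that list.

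Where a peak of each list overlapped a single peak of the other, 102 pairs on X, the scores ranked alike. Spearman's rho over these pairs was 0.84 on X and ran from 0.46 to 0.71 on the autosomes, which had 74 to 112 such pairs each. Over all 136 overlapping pairs on X, in which a peak may occur more than once, rho was 0.73, against 0.23 to 0.59 on the autosomes. Over the 115 X pairs without the tied score it was 0.57, against 0.25 to 0.56 on the autosomes. Chromosome III, at 0.56, was thus close to X once the ties were left out. These are correlations across peaks of the same 2 libraries, given as a description. The midpoints of the 102 pairs differed by 37.25 bp at the median, and 84.3% lay within 100 bp, against 67.9% to 81.1% on the autosomes.

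**Figure D4:**
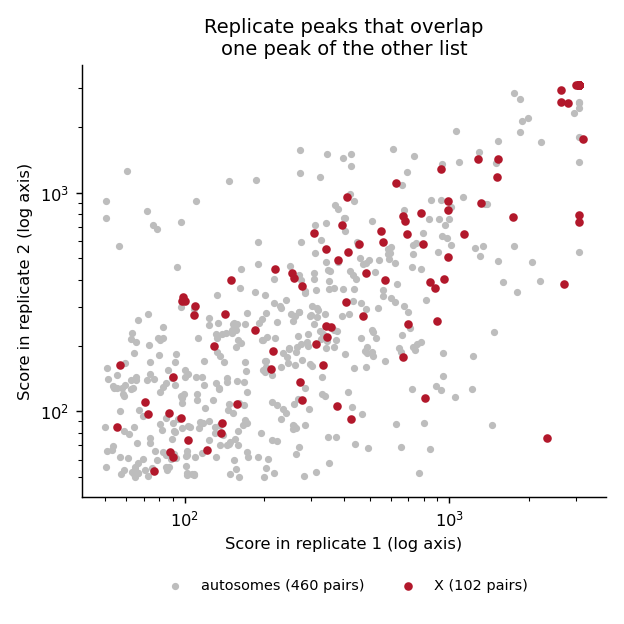
Each point is a pair of peaks, 1 from each replicate, that overlap only each other, with the deposited score in replicate 1 on the horizontal log axis and in replicate 2 on the vertical log axis. The 102 X pairs, in red, follow the diagonal trend up to the tied score of 3100, and an X pair far from it lies at 2349 in replicate 1 and 75.2 in replicate 2.

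Some members held different places among the X peaks of the 2 libraries, where the place is the percentage of X peaks with a lower score. Of the 136 members found in both replicates, 108 had places within 25 points of each other. Beyond this limit, 24 stood higher in replicate 2 and 4 stood higher in replicate 1. The members named in this paragraph were picked after their values were seen. The member from 17419607 to 17421435 scored 40.6 in the combined list, 2349 in replicate 1 and 75.2 in replicate 2. It stood above 83.8% of the X peaks of replicate 1 and above 25.5% of those of replicate 2, where it was 191 bp wide against 1784 bp. The member from 14815482 to 14816691 scored 21.0 in the combined list, 102 in replicate 1 and 335 in replicate 2, and it stood above 27.5% and 73.4% of the X peaks of these libraries. The members from 2002677 to 2003560 and from 2057758 to 2059276 were at the tied 3100 in replicate 1 and at 793 and 735 in replicate 2. Their places were nearly the same despite these scores, above 88.0% of the X peaks of replicate 1 and above 87.2% and 85.5% of those of replicate 2. The lists of the libraries differ in length, 167 and 282 X peaks, which places do not correct for.

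Some X places were found in a single replicate. The best member found in replicate 1 only ran from 17310845 to 17311129 and scored 23.6 in the combined list and 194 in replicate 1. The best member found in replicate 2 only ran from 17181134 to 17181469 and scored 30.15 in the combined list and 274 in replicate 2. Among the replicate lists themselves, the best X peak of replicate 2 with no replicate 1 peak within 500 bp ran from 10363838 to 10366734 and scored 456, and the nearest replicate 1 peak lay 201857 bp away. The next such peaks, from 8473372 to 8474263 and from 6522113 to 6522909, scored 447 and 433. In replicate 1 the best peak with no replicate 2 peak within 500 bp ran from 289831 to 295382, over 5552 bp, and scored 1592, at place 30 of the 167 X peaks, with the nearest replicate 2 peak 114448 bp away. The next peaks of this kind, from 13544044 to 13544999 and from 15483212 to 15484031, scored 512 and 423.

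Most of the widest X members were in the best score class. Of the 10 members wider than 2000 bp, which is 2.07% of the members against 1.87% of all nuclear peaks, 8 were in score class 1, against 30.0% of all X members. Above 100 were 2 of the 10, against 5.37% of all X members. The second-widest member ran from 109610 to 114264, over 4655 bp, and scored 14.5 in the combined list, above 76.7% of the X peaks there. In replicate 1 the same place, 5229 bp wide, had the highest score of all X peaks, 3189. In replicate 2, 4934 bp wide, it scored 1764, above 91.8% of the X peaks. The next widest member, from 3111732 to 3115286, stood above 84.7% of the X peaks in the combined list, with a score of 21.4. It stood above 74.9% in replicate 1, with 935, and replicate 2 split it into 3 peaks, of which the best, with 416, stood above 77.7%.

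Some broad places were broken up in the combined list. In replicate 1 a single peak from 15806998 to 15811297 scored 1739, and in replicate 2 a single peak from 15807390 to 15811236 scored 772. The combined list placed 6 peaks there, 153 to 635 bp wide, with scores from 9.53 to 12.3. A replicate 1 peak from 9184910 to 9189022 with a score of 1304 likewise held 6 combined peaks, 158 to 662 bp wide, which scored 2.15 to 14.7. On X 21 of 167 replicate 1 peaks lay over more than 1 combined peak, or 12.6%, against 8.54% over all chromosomes and 4.59% to 11.2% on the single autosomes. For replicate 2 these were 26 of 282 peaks, or 9.22%, against 5.99% over all and at most 5.88% on a single autosome. The reverse occurred as well: 9 of the 484 combined peaks lay over more than 1 replicate 1 peak, or 1.86%, against 2.08% over all, and 26 lay over more than 1 replicate 2 peak, or 5.37%, against 4.77%.

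Pieces of a high replicate peak could score low in the combined list. Of the 57 members whose overlapping peaks scored above 500 in both replicates, 26 scored above 100 in the combined list and 7 scored below 10. The 57 members shared 45 distinct peaks of replicate 1. Not each of the 7 was a piece, since the member from 1 to 323, with 9.32, matched single peaks of 331 and 324 bp in replicates 1 and 2. The lowest, from 9185114 to 9185277, scored 2.15, above 2.69% of the X peaks, while the replicate peaks over it stood above 79.6% of the X peaks in replicate 1 and 82.3% in replicate 2. Over the 136 members found in both replicates, Spearman's rho between the combined score and the best overlapping score was 0.54 for replicate 1 and 0.67 for replicate 2, and without the 20 best-scored members it was 0.30 and 0.48. The lists came from different callers, MACS for the replicates and MACS v2 for the combined list, and the part of this in the differences was not tested.

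X peaks lay close together in groups. Neighbouring members were 7953 bp apart at the median, with 25% of the gaps under 484 bp and 25% above 47895 bp. Joining members with a gap of up to 2 kb gave 304 sites, of which 225 held a single peak and 79 held 2 or more. These 79 sites contained 259 peaks, or 53.5% of the members, against 46.1% to 60.1% on the autosomes. Counting all 304, single peaks included, X had 17.2 sites per Mb, as did V, and the other autosomes had 20.6 to 28.9.

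The sites with the most peaks were not the sites with the highest scores. The largest held 10 peaks from 8017070 to 8026956, and its best combined score was 12.8. Replicate 1 had 2 peaks in it, with a best score of 70.8, and replicate 2 had 8, with a best score of 152. The next held 9 peaks from 4137727 to 4148381 with a best score of 59.96, and there replicate 1 had 5 peaks up to 1155 and replicate 2 had 6 up to 1664. Another, with 7 peaks from 2057758 to 2063502, includes the replicate 1 peak at 3100 described above. Of the 20 best-scored members, 13 stood alone and 7 lay in a site of several peaks.

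Peaks were found in all 10 bins of X, with 38 to 66 combined peaks in each. Bin 9, from 14.2 to 15.9 Mb, held the most, 66 peaks or 13.6% of the members, and 25 of these were found in both replicates. Bin 6, from 8.86 to 10.6 Mb, held the fewest with 38. Median combined scores were highest at both ends, with 11.1 in bin 10 and 9.32 in bin 1, and ran from 5.42 to 7.54 in the others. The longest stretch of X without a combined peak ran over 412784 bp, from 3127885 to 3540670, and the next over 411022 bp, from 5429927 to 5840950, which starts at the end of a member among the best 20.

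The replicates differed in how their X peaks were spread. Replicate 1 had its most peaks in bin 1, with 27, and its fewest in bin 5, with 8. Replicate 2 had 30 in each of these bins, and it ranged only from 23 to 36 over all 10. In bins 5 to 7 the combined list had 132 members, 3 of them found in replicate 1 only and 41 in replicate 2 only. In bins 1 and 9, with 123 members, the numbers were 23 and 28. Over all nuclear peaks 10.1% were found in replicate 1 only and 19.3% in replicate 2 only. Bins 1 and 9 were those with the most members found in replicate 1 only, 13 and 10. Each other bin had 1 to 5 of them. The bins set against each other here were chosen after the data were seen.

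**Figure D5:**
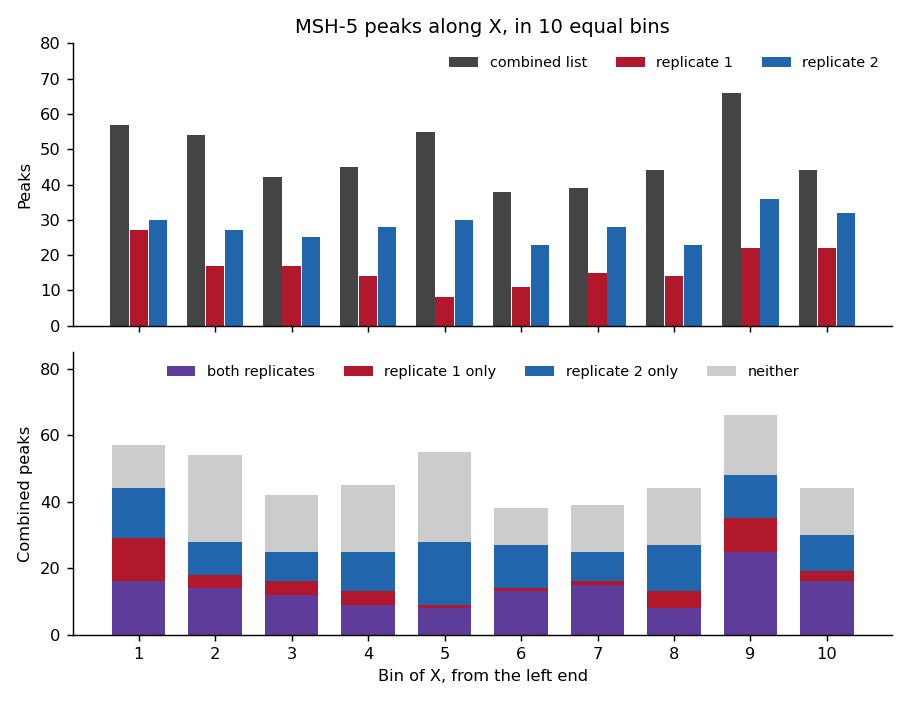
Bars give the number of peaks in each of 10 equal bins of X, counted from the left end, in the 3 lists (top) and the number of combined peaks by support (bottom). Replicate 1 falls from 27 peaks in bin 1 to 8 in bin 5, replicate 2 stays between 23 and 36, and 3 of the 132 members in bins 5 to 7 were found in replicate 1 only.

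At the ends of X, the first member ran from position 1 to 323 and scored 9.32 in the combined list, 629 in replicate 1 and 1112 in replicate 2. The last member, from 17718596 to 17718744, scored 24.3, the highest of all X members found in neither replicate, and was 149 bp wide. The last peak of replicate 1 ended at 17545936 and the last of replicate 2 at 17680556.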

How the data were processed

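The sources are 3 deposited peak lists, 1 per ChIP library and 1 for the series; no list of an input library was used. The submitters' processing notes name BWA and the build ce10, and the build is WormBase WS220, per the file headers. Peaks were called with MACS (replicate lists) and MACS v2 (combined list), per the source columns of the files. The score of each peak was deposited by the authors, on a scale that is not stated, and lists were compared by the place of a peak within the X peaks of its list or by rank correlations over overlapping peaks, with the scores given beside. Neither the depth, nor the input used for each library, nor any pooling of reads for the combined list is stated in these sources. The labels do not tie the replicates to separate cultures, so what differs between them may be technical.

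Chromosome lengths were taken as the end of the last peak in any list, 17718744 bp for X, and 2 mitochondrial peaks of the combined list and 1 of replicate 2 were left out. An overlap of 1 bp counted as found. Shares have exact 95% Clopper-Pearson intervals, which treat clustered peaks as independent and are therefore too narrow. X was set against the autosomes with an exact two-sided permutation test over the 6 chromosomes. Named regions were the 20 best-scored X peaks, the best of each of 10 bins, the 3 widest, the 3 best of each support class, the 3 best of each replicate with no counterpart within 500 bp, the 3 sites with the most peaks and the end peaks, not all of which are printed; others are marked in the text. Members, rules and definitions were chosen with earlier results of these data known. Interval functions were tested on simulated data. Python 3.11.15, pandas 2.3.3 and scipy 1.17.1 were used. Genes near peaks were not analysed here, because the gene table used names another assembly. Alternatives were an overlap of 0.5 of both peaks, a distance of 500 bp, the better-scored 50%, other merge distances, each replicate alone, and autosomal shares averaged or weighted by score class.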

Additional observations from a re-analysis of the deposited data

How the results depend on the processing

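Of 56 alternatives over 13 results, 37 kept their direction or value, 17 moved a value and 2 reversed a direction. The share of X peaks found in both replicates (28.1%) was 15.7% with an overlap of 0.5 of both peaks and 46.7% in the better-scored 50%. With 1 replicate alone the measure becomes the share found in that replicate, which was 37.6% for replicate 1 and 53.9% for replicate 2. The share found in neither (36.6%) was 56.2% with an overlap of 0.5 of both peaks and 11.9% in the better-scored 50%. The share not found in a single replicate was 62.4% for replicate 1 and 46.1% for replicate 2. The gap to the autosomes in peaks found in neither ran from -13.8 to -5.43 points over 8 settings, each negative. The difference of -4.46 points in shared replicate 2 peaks became 1.97 with an overlap of 0.5 of both peaks and 5.71 in the better-scored 50%, and the cause was not tested. Merged X sites (304) numbered 104 for peaks found in both replicates and 134 in replicate 1. The median gap (7953 bp) was 71934 bp for peaks found in both replicates, 27273 bp in the better-scored 50%, 60059 bp in the list of replicate 1 and 24298 bp in that of replicate 2; these sets hold fewer peaks by construction. The densest of 10 bins held 13.6% of all X peaks and 18.4% of those found in both replicates, and it was bin 1 in place of bin 9 in replicate 1 and after merging. The Spearman correlation of scores between the replicates (0.73) was 0.87 with an overlap of 0.5 of both peaks and 0.57 without the tied score. No paired analysis was possible because no test here compares ChIP with input, whose replicate numbers they share. Gene context was not run. Without depths, absence from a list does not show absence of enrichment.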
